A study of Mus musculus with 39 samples.

Results

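The genes described here are the cell cycle and DNA replication genes of AB1-HA mouse mesothelioma tumours, a list of 45 gene symbols. Rows for 42 of them were found by symbol among the 39676 genes of the count table: 17 of the 18 listed replication genes and 25 of the 27 listed mitosis genes. Mcm4, Kif11 and Kif20a had no row and were not analysed here. All 42 passed the low-count filter in each comparison, and the lowest raw count of any of them in any tumour was 217, for Ccne1.

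Dividing cells copy their DNA in S phase and separate the copies in mitosis. The passage into S phase is driven by cyclin E with its kinase and by the E2F transcription factors, which switch on genes for the MCM replicative helicase, for nucleotide synthesis and for the sliding clamp PCNA. Later, B-Myb and FoxM1 act with the MuvB complex on promoters that hold a CHR element, often beside CCAAT boxes. These factors switch on the genes of the mitotic kinases, spindle and kinetochore. Tumours with many dividing cells carry high levels of both sets.

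AB1-HA is a mesothelioma line of BALB/c mice that carries the influenza haemagglutinin gene, and its cells were injected under the skin of BALB/c mice, of both sexes in the study's methods. Whole tumours were resected on day 9: 10 after PBS, 9 after tretinoin alone, 10 after immune checkpoint therapy (ICT) alone and 10 after both together. Tretinoin is the retinoic acid receptor ligand also called all-trans retinoic acid. By the labels, 5 daily doses of 5 mg/kg began on day 4. The study's text differs from the labels in the dose and in the number of doses. It gives 10 mg/kg over 5 days where tretinoin alone is compared with controls. Where all treatments are compared it gives 4 doses of 5 mg/kg. ICT consisted of 100 µg anti-CTLA-4 and 100 µg anti-PD-L1 on day 7. The labels divide the tumours given both treatments into 6 of responders and 4 of non-responders. In the study's methods the response was read from a tumour left on the other flank. All tumours come from 1 cell line, and because whole tumours were sequenced, the RNA of leukocytes and stroma is measured with that of the tumour cells.

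The promoters of several members are printed here because they show the elements named above and the members that lack them. A RefSeq promoter (GRCm38.p6) was matched by symbol for 15 replication and 20 mitosis genes, and the 250 bases before each start were searched on both strands for the CHR element (TTTGAA), the CCAAT box (CCAAT) and 4 E2F words (TTTCCCGC, TTTCGCGC, TTTGCCGC and TTTGGCGC), where words may overlap each other. Each line gives 120 bases upstream of every annotated start, 5′ to 3′ on the gene's strand, and capitals mark the matches on either strand.
Mcm6 (chr1:128359706-128359825, minus strand): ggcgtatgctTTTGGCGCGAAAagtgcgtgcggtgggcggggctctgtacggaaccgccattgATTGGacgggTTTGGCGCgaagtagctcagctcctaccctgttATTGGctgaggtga
E2f8 (chr7:48881597-48881716, minus strand): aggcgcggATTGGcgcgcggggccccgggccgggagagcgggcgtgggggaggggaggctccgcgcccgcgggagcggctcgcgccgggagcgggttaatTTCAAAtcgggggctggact
Cdk1 (chr10:69352939-69353058, minus strand): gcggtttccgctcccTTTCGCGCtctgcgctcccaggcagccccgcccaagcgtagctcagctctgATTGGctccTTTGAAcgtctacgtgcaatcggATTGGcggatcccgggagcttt
Top2a (chr11:99024190-99024309, minus strand): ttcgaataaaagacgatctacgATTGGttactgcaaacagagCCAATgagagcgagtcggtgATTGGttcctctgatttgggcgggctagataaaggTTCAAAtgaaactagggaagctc
Cdc20 (chr4:118437353-118437472, minus strand): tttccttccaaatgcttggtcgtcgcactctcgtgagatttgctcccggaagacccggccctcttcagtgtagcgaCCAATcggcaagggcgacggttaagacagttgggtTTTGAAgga
Mki67 (chr7:135716380-135716499, minus strand): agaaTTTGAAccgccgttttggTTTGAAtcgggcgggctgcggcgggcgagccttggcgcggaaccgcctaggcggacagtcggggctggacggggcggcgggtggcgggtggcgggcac
Prc1 (chr7:80294330-80294449, plus strand): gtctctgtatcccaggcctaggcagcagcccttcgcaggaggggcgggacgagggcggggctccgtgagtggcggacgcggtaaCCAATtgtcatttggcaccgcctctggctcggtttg
Tyms (chr5:30073626-30073745, minus strand): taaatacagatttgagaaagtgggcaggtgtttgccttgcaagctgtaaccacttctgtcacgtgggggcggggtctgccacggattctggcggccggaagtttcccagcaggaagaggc
Ccne1 (chr7:38107535-38107654, minus strand): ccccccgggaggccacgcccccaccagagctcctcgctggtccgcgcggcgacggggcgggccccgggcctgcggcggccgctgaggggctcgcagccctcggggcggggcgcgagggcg

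The Cdk1 stretch held a CHR element, an E2F word and CCAAT boxes, the Mcm6 stretch held 3 E2F matches of which a pair overlap, and the Tyms and Ccne1 stretches held none of the words. Over the full 250 bases, the CHR element was in 8 of 20 mitosis promoters (40.0%) and 3 of 15 replication promoters (20.0%), against 17.4% of the 17033 promoters matched to the count table and 13.6% of the 10071 whose gene passed the low-count filter. A CCAAT box was in 17 mitosis (85.0%) and 10 replication promoters (66.7%), against 38.6% of all and 40.2% of the expressed. E2F words were in 4 replication promoters (26.7%) and 1 mitosis promoter (5.0%), against 2.47% and 3.63%. A CHR element together with a CCAAT box was in 7 mitosis (35.0%) and 3 replication promoters (20.0%), against 6.16% and 5.14%. These are matches of letters, with no test, and no binding was measured in these tumours. Ccna2, Ccne2, Aurkb, Tpx2, Gins2, Foxm1 and Wee1 were not searched.

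The table held between 14033046 and 37951183 counts in a tumour (median 18548168). The first digit of a tumour's name forms 2 series within each treatment (1 and 5 for PBS, 3 and 7 for tretinoin, 6 and 8 for ICT, 2 and 4 for the combination). What the digit stands for is not given, and no series holds more than 1 treatment, so series and treatment cannot be told apart. The mesothelial genes Upk3b, Lrrn4, Krt19 and Calb2 had medians under 1 on the TMM-normalized counts-per-million (CPM) scale used throughout, and 8 of 11 mesothelial and tumour markers had a row. The 6 highest sums of T cell markers were those of ICT replicates 7 and 3 (175.8 and 174.3 CPM), tretinoin replicate 3 (166.8), combination replicates 2 and 6 (117.7 and 111.9, both responders) and PBS replicate 4 (109.7), and results that rest on them are also given without them. The keratinocyte markers Krt5, Krt14 and Lor were under 1 CPM at the median, as were the neutrophil gene Ly6g and the erythroid gene Alas2.

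Levels between genes were compared per length, as read counts scaled to exon length and library size (RPKM; GENCODE M21 lengths, 40 members with a length). In the PBS tumours the highest median was that of Pcna, the replication clamp, at 107.8 RPKM, followed by Mki67, the Ki-67 antigen that coats mitotic chromosomes, at 74.35, and Top2a, the topoisomerase that untangles sister chromatids, at 71.89. Ccna2 (cyclin A) and Mcm6 (a helicase subunit) came next, at 66.77 and 62.98 RPKM. The lowest was Ccne1 (cyclin E1) at 6.569 RPKM. The median over each set in PBS was at 21.16 RPKM for 16 replication genes and 24.3 RPKM for 24 mitosis genes. The 42 genes together took 0.601% to 0.671% of all counts in PBS tumours, 0.388% to 0.625% with tretinoin, 0.360% to 0.665% with ICT and 0.371% to 0.606% with the combination, so that the groups overlapped but the lowest tumours were all treated ones.

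Within groups the members moved together from tumour to tumour. Over the 39 tumours, after subtraction of group means, the correlation of a gene with the mean of the rest of its own set had a median of 0.927 for replication genes and 0.89 for mitosis genes, and 16 of 17 and 23 of 25 were over 0.7. Values in a tumour share its library and its cell mixture, so this is a description. The genes that stood apart were Wee1 (r = -0.045), the kinase that holds CDK1 inactive, Ccne1 (r = 0.383) and Nusap1 (r = 0.605), a microtubule-binding spindle protein. Mean replication and mean mitosis levels correlated within every group, at r = 0.707 in PBS (Spearman's rho 0.624, and r = 0.577 without the 2 farthest tumours), 0.96 with tretinoin (0.783 and 0.797), 0.978 with ICT (0.867 and 0.921) and 0.976 with the combination (0.915 and 0.971).

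**Figure D1:**
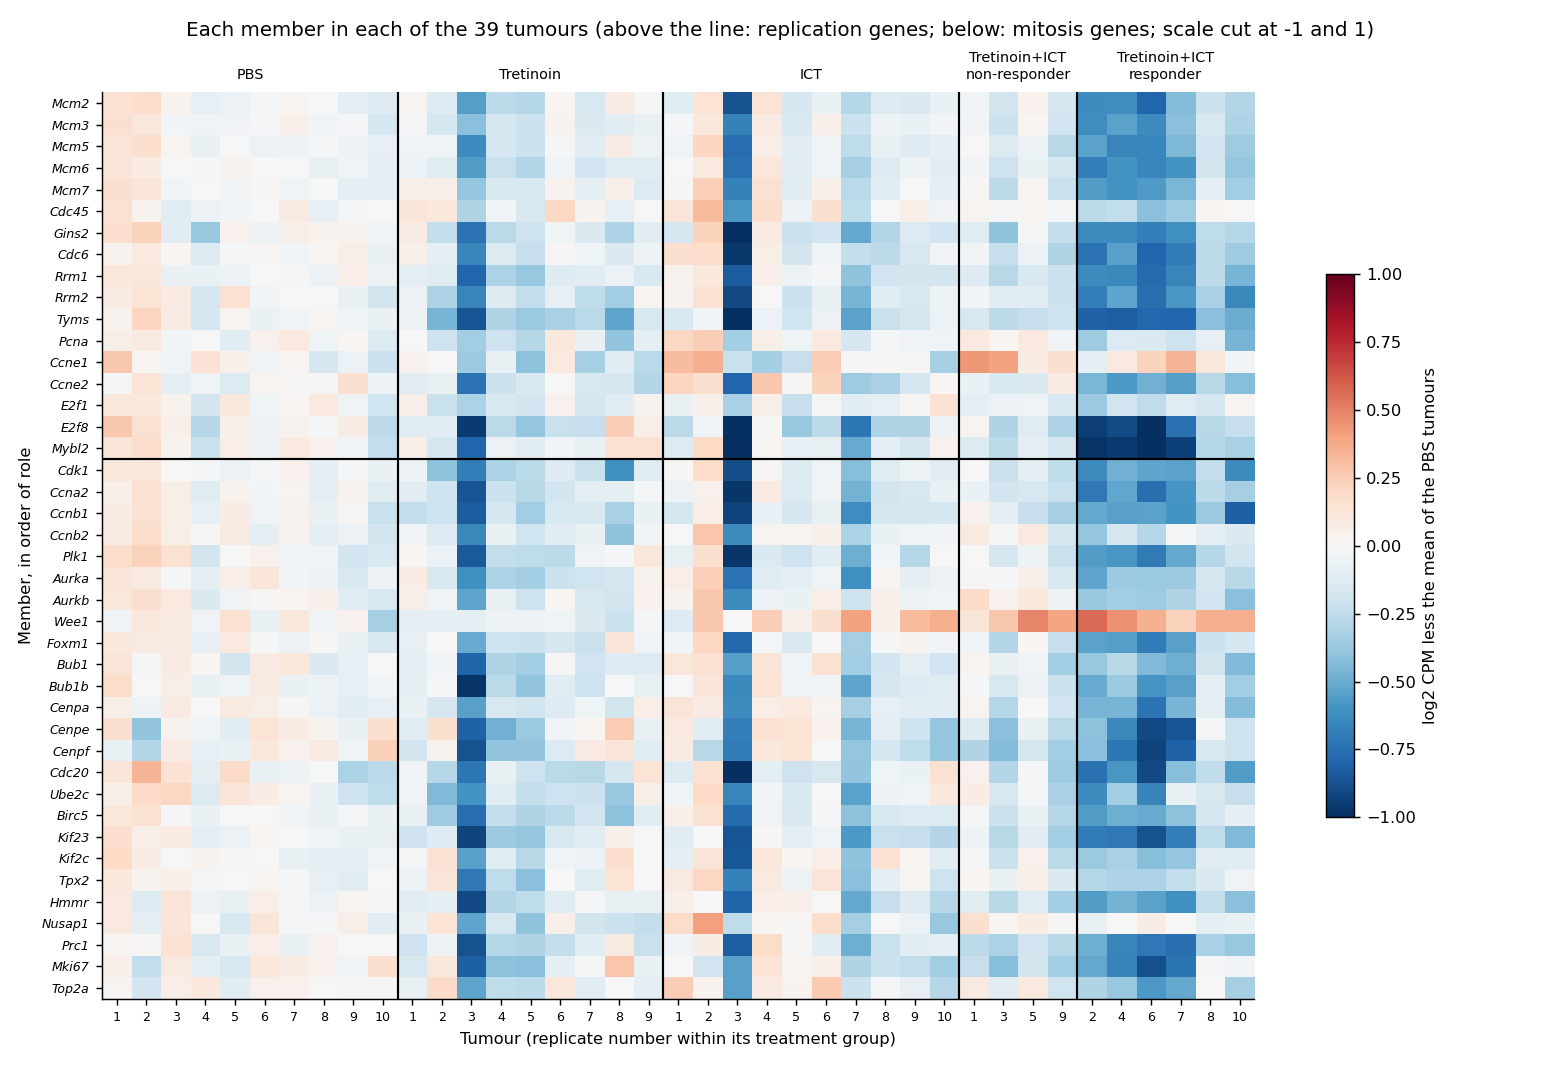
Heat map of the 42 genes (rows, replication genes above the line, mitosis genes below) in the 39 tumours (columns, by group). Colour is log2 CPM less the gene's PBS mean, on a scale cut at -1 and 1; most genes of a tumour share its colour, and Wee1 and Ccne1 do not follow the others.

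Against PBS, the combination lowered most of the members. In edgeR's quasi-likelihood test at a Benjamini-Hochberg adjusted p below 0.05, 35 of 42 were lower and 2 were higher, whereas 24.5% of the 14265 genes tested were lower and 25.7% were higher. Replication genes (14 of 17 lower, 1 higher) had a median log2 fold change of -0.32 and mitosis genes (21 of 25 lower, 1 higher) of -0.29, against -0.01 over all genes. The changes were small, and no member reached a 2-fold change. The standard errors of the 42 log2 fold changes ran from 0.04 to 0.12. In bulk tumours, fewer dividing cells and less of these RNAs per cell cannot be told apart, and p-values measure the spread between the tumours, whose labels do not say whether each is a separate mouse.

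Among the helicase genes, 7 of 8 fell with the combination. Cdc6, which loads the helicase onto origins, was at 38.98, 42.88 and 45.46 CPM (lowest, median and highest) in PBS tumours and at 24.5, 33.82 and 41.78 CPM in combination tumours. Its log2 fold change was -0.38 (SE 0.08, adjusted p = 8.34e-04), with 10 of 10 combination tumours under the PBS median and an overlap of the ranges. Mcm6 went from 274.4, 293.8 and 318.3 CPM to 181.4, 239.3 and 288.5 CPM, a log2 fold change of -0.34 (SE 0.08, adjusted p = 0.00117). Mcm2, Mcm3, Mcm5 and Mcm7, the other helicase subunits found, fell by 0.29 to 0.32 on the log2 scale. Gins2 of the helicase's GINS complex fell by 0.38. Cdc45, the helicase's other partner, had a log2 fold change of -0.12 and did not pass (adjusted p = 0.100).

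Of the nucleotide supply and clamp genes, 3 of 4 fell. Tyms, thymidylate synthase, was at 64.34, 72.37 and 84.24 CPM in PBS and at 40.98, 52.9 and 65.02 CPM in the combination, a log2 fold change of -0.48 (SE 0.09, adjusted p = 1.30e-04). The ranges met only where the highest combination tumour lay above the lowest PBS tumour. Rrm1, the large subunit of ribonucleotide reductase, was at 318.2, 327.9 and 361.1 CPM in PBS and at 195.8, 258.5 and 304.2 CPM in the combination, so every combination tumour was under every PBS tumour (log2 fold change -0.40, SE 0.07, adjusted p = 1.39e-04). Its small subunit Rrm2 went from 145.3, 164.1 and 182.7 CPM to 97.87, 122.9 and 161.8 CPM (log2 fold change -0.38, SE 0.09, adjusted p = 0.00118), with overlap. Pcna did not pass (log2 fold change -0.11, SE 0.06, adjusted p = 0.141). Only Rrm1 and Prc1 of the 42 members had such separated ranges, while 1.67% of 14977 genes had every combination tumour below every PBS tumour.

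The transition genes split. Mybl2, which encodes B-Myb, was at 85.68, 104.7 and 114.8 CPM in PBS and at 48.76, 82.38 and 95.25 CPM in the combination (log2 fold change -0.48, SE 0.12, adjusted p = 0.00312). The repressor E2f8 fell from 74.27, 93.05 and 108.8 CPM to 42.09, 73.16 and 91.85 CPM (log2 fold change -0.45, SE 0.12, adjusted p = 0.00463). Both were lower in 10 of 10 combination tumours than the PBS median. E2f1, the activator, fell by 0.14 (adjusted p = 0.0301) and Ccne2, cyclin E2, by 0.29 (adjusted p = 0.00261). Ccne1 rose instead, from 15.14, 17.49 and 21.14 CPM to 16.47, 19.26 and 23.75 CPM (log2 fold change 0.18, SE 0.07, adjusted p = 0.0447), with overlapping ranges, and the call was lost with DESeq2, without the low-count filter and in a single fit of all tumours.

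Of the mitotic kinases, cyclins and their regulators, 6 of 9 fell and 1 rose. Cdk1, the mitotic kinase, was at 161.9, 171.4 and 187.0 CPM in PBS and at 111.2, 134.7 and 173.3 CPM in the combination (log2 fold change -0.35, SE 0.07, adjusted p = 4.24e-04). Its partner Ccnb1, cyclin B1, fell by 0.38 (SE 0.08, adjusted p = 6.41e-04) from a PBS median of 113.8 CPM to 82.65 CPM, and Ccna2 by 0.36 (SE 0.08, adjusted p = 4.86e-04). Plk1, the polo-like kinase, fell by 0.31, Aurka by 0.21, and Foxm1, the transcription factor, by 0.31. Aurkb, of the chromosomal passenger complex, and Ccnb2, cyclin B2, had log2 fold changes of -0.16 and -0.10 and did not pass. Wee1, which restrains CDK1, went the other way: it was at 29.22, 36.92 and 40.93 CPM in PBS and at 40.1, 47.27 and 54.38 CPM in the combination (log2 fold change 0.36, SE 0.06, adjusted p = 4.68e-05). The 2 ranges met only at the edge.

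All 8 kinetochore, checkpoint and APC/C genes fell, by 0.24 to 0.43 on the log2 scale. Cenpf, a kinetochore protein, was at 108.9, 134.0 and 157.4 CPM in PBS and at 70.27, 102.9 and 119.9 CPM in the combination, the largest fall among them (log2 fold change -0.43, SE 0.09, adjusted p = 4.84e-04). Cdc20, the APC/C activator, fell by 0.39 (SE 0.11, adjusted p = 0.00421) and Birc5, survivin, by 0.27 (SE 0.06, adjusted p = 0.00159). Among kinesins and spindle proteins 5 of 6 fell. Prc1, which bundles the midzone microtubules, was at 186.9, 209.7 and 230.7 CPM in PBS and at 123.5, 163.4 and 182.3 CPM in the combination, with no overlap (log2 fold change -0.42, SE 0.07, adjusted p = 2.50e-05). Hmmr, which acts in spindle assembly, fell by 0.36 (SE 0.06, adjusted p = 5.22e-05). Nusap1 had medians of 61.9 CPM in PBS and 62.48 CPM in the combination and did not pass (log2 fold change 0.01, adjusted p = 0.833). Mki67 went from 611.0, 748.0 and 805.9 CPM to 392.3, 554.0 and 712.6 CPM (log2 fold change -0.38, SE 0.09, adjusted p = 0.00217) and Top2a fell by 0.20 (SE 0.08, adjusted p = 0.0287).

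**Figure D2:**
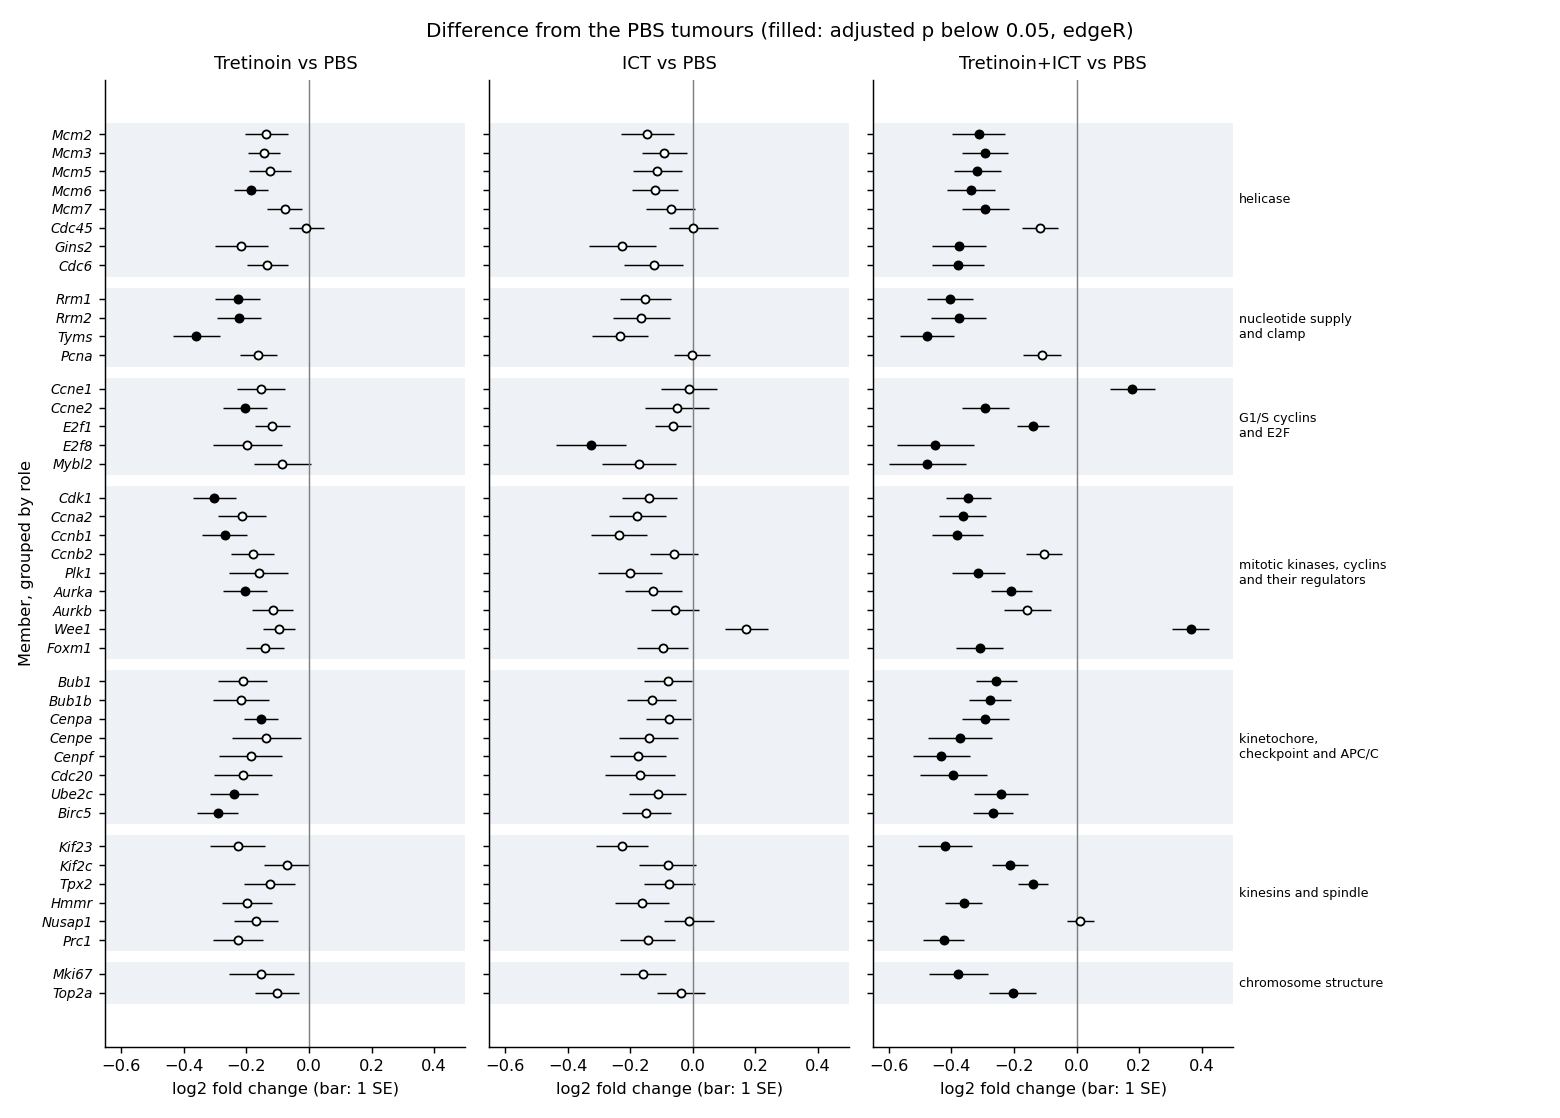
Log2 fold change of each of the 42 genes (rows, in blocks by role) for tretinoin, ICT and the combination against PBS, with bars of 1 SE; filled points passed an adjusted p of 0.05. Filled points number 11, 1 and 37 in the 3 panels, and in the last Wee1 and Ccne1 lie right of 0.

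Leukocyte markers moved with this result. The 6 leukocyte markers, all found, summed to 1164 to 2093 CPM in PBS and to 1562 to 3466 CPM in the combination, and all 6 were higher, as were 5 of 5 macrophage and 4 of 4 neutrophil markers tested, while 0 of 7 T cell markers passed. Over the 10 combination tumours the log2 leukocyte sum correlated with the mean of the members at r = -0.795 (rho = -0.733, and r = -0.832 without the 2 farthest tumours), and over the 10 ICT tumours at r = -0.721 (rho = -0.576, then -0.692). In PBS (r = -0.496, rho = -0.418) and tretinoin tumours (r = -0.717, rho = -0.483) the relation rested on the 2 farthest tumours, without which r was -0.0586 and -0.223. With the mean log2 CPM of these markers as a covariate, 0 members were lower and only Wee1 was higher (log2 fold change 0.39), and the medians were -0.0050 for replication and -0.0048 for mitosis genes. In that fit 0.241% of 15380 genes were lower and 307 were higher, and since the markers differ between the groups, the covariate also takes up part of the treatment. Their part in the result cannot be told apart from that of the treatment.

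**Figure D3:**
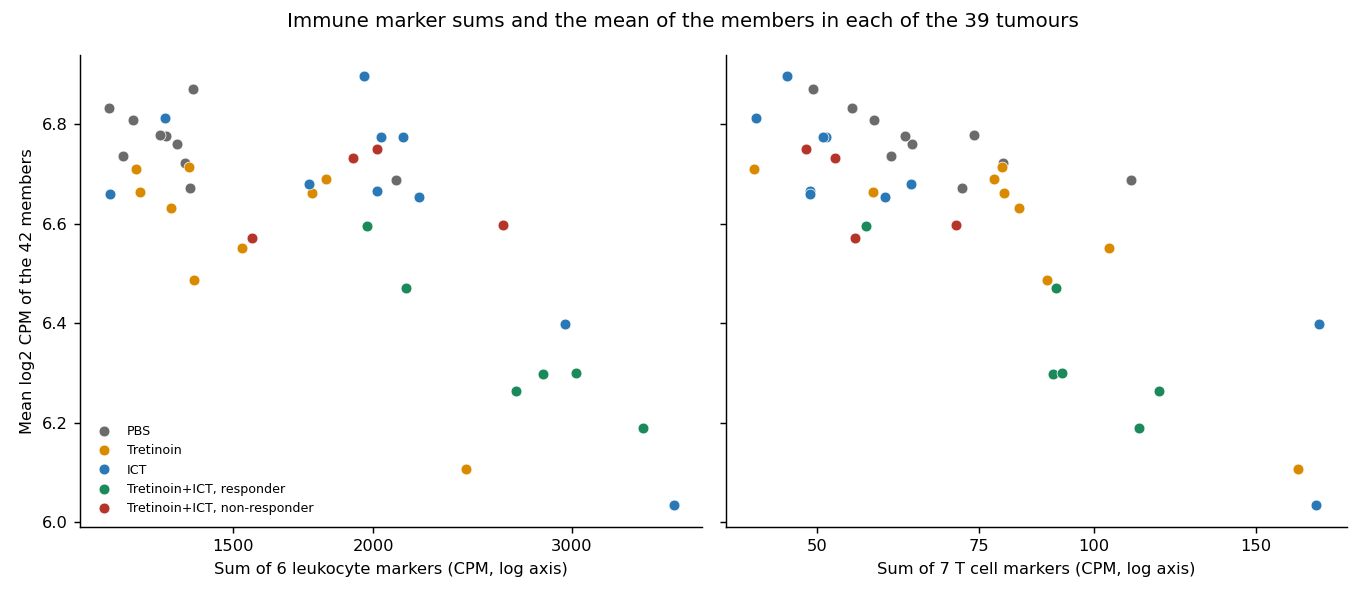
Mean log2 CPM of the 42 genes in each of the 39 tumours against its summed leukocyte markers (left) and summed T cell markers (right), in CPM on log axes, coloured by group and response. The members' mean is lower where the leukocyte sum is higher among the ICT and combination tumours, where r was -0.721 and -0.795.

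Tretinoin alone lowered 11 of 42 members and raised 0 against PBS, and all 42 log2 fold changes were negative. Of 14340 genes tested, 8.95% were lower and 11.5% higher. Medians were -0.15 for replication and -0.19 for mitosis genes, against 0.01 over all genes. The 5 replication genes that fell were Tyms, Mcm6, Rrm2, Rrm1 and Ccne2. Tyms was at 39.9, 58.13 and 69.64 CPM with tretinoin, and 9 of 9 tumours were under the PBS median (log2 fold change -0.36, SE 0.07, adjusted p = 0.00216). Mcm6, at 199.0, 269.4 and 285.6 CPM, fell by 0.19 (SE 0.05, adjusted p = 0.0205), and Rrm2, at 104.1, 139.2 and 167.3 CPM, by 0.22 (SE 0.07, adjusted p = 0.0279).

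The 6 mitosis genes that fell with tretinoin were Birc5, Cdk1, Ccnb1, Ube2c (the E2 enzyme of the APC/C), Aurka (a spindle pole kinase) and Cenpa (the centromeric histone). Birc5 was at 69.5, 98.08 and 112.6 CPM against 112.4, 116.8 and 131.3 CPM in PBS, so the ranges met only at their ends (log2 fold change -0.29, SE 0.06, adjusted p = 0.0035). Cdk1 was at 107.1, 143.6 and 166.9 CPM (log2 fold change -0.30, SE 0.07, adjusted p = 0.00422) and Ccnb1 at 62.74, 97.15 and 107.2 CPM (log2 fold change -0.27, SE 0.07, adjusted p = 0.0129), both under the PBS median in 9 of 9 tumours. Mki67 did not pass (log2 fold change -0.15, adjusted p = 0.306), and neither did Top2a or any MCM gene other than Mcm6. Tretinoin replicate 3 was the lowest of its group in both means. Without it 11 members were lower, 8 of them among the 11 named, where 1139 of 14402 genes were lower. The medians were then -0.13 in both sets. In a single fit of all 39 tumours 3 members were lower, where 845 of 14977 genes were. With the leukocyte covariate 4 members were lower, where 960 of 15357 genes were. In both fits the members' share was near that of all genes. Against PBS 1 of 6 leukocyte, 1 of 5 macrophage and 2 of 5 endothelial markers were higher. Of 4 mesothelial and tumour markers tested, 1 was lower and 1 higher. The sum of that list was at 2817, 3441 and 3973 CPM, against 3353, 4193.5 and 4745 CPM in PBS, with overlap. The part of these cells cannot be told apart from that of the treatment. By name series the medians lay between -0.26 and -0.05 for replication and between -0.31 and -0.06 for mitosis genes.

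ICT alone lowered 1 of 42 members against PBS, E2f8, and raised 0, where 7.15% of 14155 genes were lower and 14.1% higher. E2f8 was at 40.69, 74.22 and 91.06 CPM with ICT, with overlap (log2 fold change -0.33, SE 0.11, adjusted p = 0.0421), and the call was lost without the low-count filter, with the leukocyte covariate, by name series and in the single fit of all tumours, where Wee1 was the member that passed, as higher. Wee1 had the highest log2 fold change in the comparison itself, 0.17, which did not pass (adjusted p = 0.0779). The log2 fold changes of 40 members were negative, and medians were -0.12 and -0.13 for replication and mitosis genes, against -0.02 over all genes. The spread was wide: the mean of the replication genes ran from 5.84 to 6.77 log2 CPM in ICT tumours and from 6.49 to 6.74 in PBS tumours. ICT replicate 3, which had the highest leukocyte sum of all tumours at 3694 CPM, held the lowest ICT value. Without it the medians were -0.05 for replication and -0.07 for mitosis genes. Of the leukocyte markers 5 of 6 were higher with ICT, as were 5 of 5 macrophage and 4 of 4 neutrophil markers, and 2 of 4 fibroblast and pericyte markers were lower. With the leukocyte covariate both medians turned positive, at 0.064 for replication and 0.062 for mitosis genes. The part of these cells in the negative values cannot be told apart from that of the treatment.

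Adding tretinoin to ICT changed 0 of 42 members by edgeR at an adjusted p below 0.05 and 0 by DESeq2, where 0.422% of 14202 genes were lower and 1.57% higher, and 2571 genes had an unadjusted p below 0.05. The log2 fold changes were negative for 39 members, with medians of -0.21 for replication and -0.18 for mitosis genes, and their smallest adjusted p was 0.167, for Prc1 (log2 fold change -0.29). The call depended on the tumours. Without ICT replicates 3 and 7, which takes tumours from the ICT arm only, 24 members were lower, where 7.32% of 14322 genes were. When combination replicates 2 and 6, which also had high T cell sums, were left out as well, 1 member was lower, Prc1, where 1.06% of 14165 genes were. Without ICT replicate 3 alone, 2 were lower, where 338 of 14266 genes were. Adding ICT to tretinoin raised 2 members and lowered 0, where 9.01% of 14393 genes were lower and 12.3% higher. Wee1 was at 31.74, 34.5 and 36.38 CPM with tretinoin, under every combination tumour (log2 fold change 0.46, SE 0.05, adjusted p = 2.07e-05). Ccne1 was at 13.21, 16.32 and 18.75 CPM (log2 fold change 0.33, SE 0.09, adjusted p = 0.0126). Without tretinoin replicate 3, 9 members were lower and 2 higher, where 14.6% of 14465 genes were lower and 2367 genes were higher. With combination replicates 2 and 6 left out as well, 1 member was lower and 2 were higher. In that fit 1292 of 14313 genes were lower and 1721 higher, larger shares than those of the members. Leukocyte markers were higher in 6 of 6, neutrophil markers in 4 of 4 and macrophage markers in 3 of 5, while 3 of 4 fibroblast and pericyte markers and 2 of 5 endothelial markers were lower. With the leukocyte covariate Wee1 alone passed, where 82 of 15466 genes were higher and 109 lower. The medians were then 0.10 for replication and 0.17 for mitosis genes.

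The interaction asks whether the change with tretinoin differs with and without ICT. No member passed in edgeR, 0 of 42, where 0.307% of 14977 genes did in either direction and 1415 had an unadjusted p below 0.05. DESeq2 was not run for it. The medians were -0.04 for replication and 0.02 for mitosis genes. The smallest adjusted p were those of Wee1 (0.204, log2 difference 0.28) and Ccne1 (0.353, log2 difference 0.33).

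**Figure D4:**
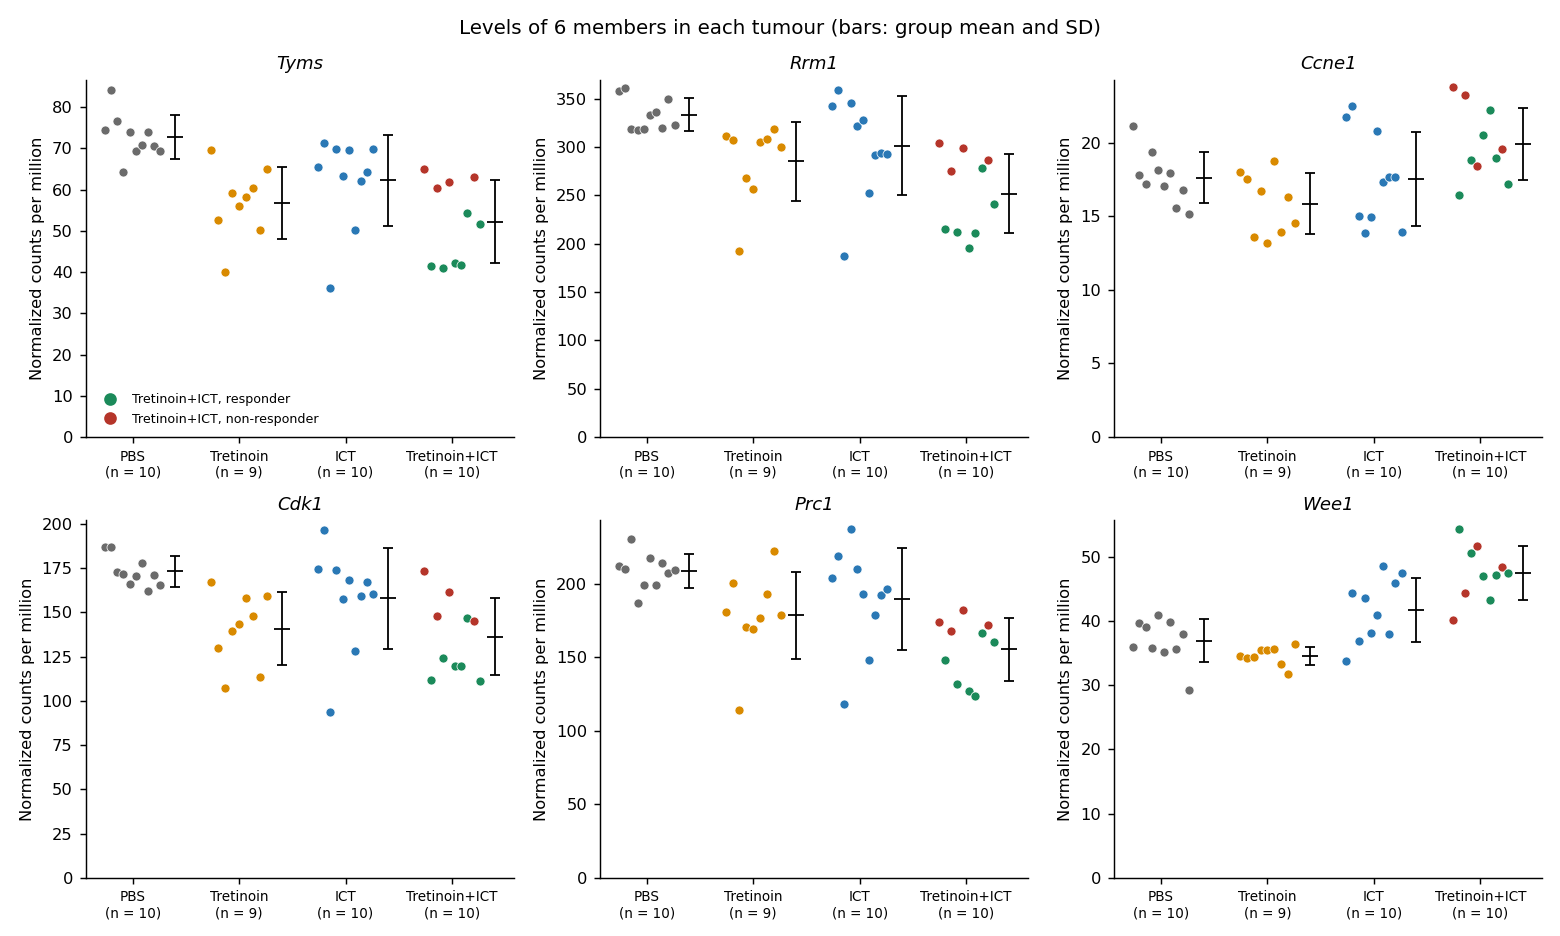
Normalized CPM of Tyms, Rrm1, Ccne1, Cdk1, Prc1 and Wee1 in each of the 39 tumours by group, with responders (green) and non-responders (red) of the combination in their own colours and bars for the group mean and SD. The combination has the lowest group mean for Tyms, Rrm1, Cdk1 and Prc1 and the highest for Ccne1 and Wee1.

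Among combination tumours, responders had lower levels than non-responders in 41 of 42 members, with medians of -0.35 for replication and -0.27 for mitosis genes against 0.01 over all genes, but no member passed in edgeR, 0 of 42. None of the 14604 genes passed in that test (0.0% were lower), while 3302 had an unadjusted p below 0.05. Rrm2 was at 161.8, 153.3, 153.0 and 141.9 CPM in the 4 non-responders and at 97.87, 107.6 and 131.3 CPM (lowest, median and highest) in the 6 responders, with no overlap (log2 fold change -0.45, SE 0.08, adjusted p = 0.0841). Tyms was at 65.0, 60.4, 61.8 and 63.0 CPM in non-responders and at 40.98, 41.93 and 54.24 CPM in responders (log2 fold change -0.45, SE 0.09, adjusted p = 0.0841). Aurkb was at 92.1, 83.1, 86.7 and 77.7 CPM in non-responders and at 60.31, 63.33 and 70.54 CPM in responders (log2 fold change -0.39, SE 0.07, adjusted p = 0.0841). Each of these 3 was separated completely between the labels.

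Ccnb1 was at 115.3, 104.7, 95.5 and 89.2 CPM in non-responders and at 63.47, 77.02 and 86.7 CPM in responders (log2 fold change -0.39, SE 0.09), and Ccne2 at 27.1, 25.5, 25.5 and 29.9 CPM and at 18.93, 20.42 and 23.25 CPM (log2 fold change -0.37, SE 0.08). Mybl2 had the largest difference, at 92.4, 84.9, 95.3 and 90.5 CPM in non-responders and 48.76, 52.66 and 83.55 CPM in responders (log2 fold change -0.54). Every responder was below every non-responder for 11 of the 42 members, 6 replication genes (Rrm2, Tyms, Ccne2, Mcm2, Mybl2 and Pcna) and 5 mitosis genes (Aurkb, Ccnb1, Aurka, Ccna2 and Prc1), and for 3.49% of 14977 genes. Mki67 was not among them: responder replicates 8 and 10, at 712.6 and 708.7 CPM, were above the 4 non-responders, and its log2 fold change was -0.12 (adjusted p = 0.717). Wee1 was the member with a positive value (log2 fold change 0.08, adjusted p = 0.591).

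The call depended on the tool and on 1 tumour. With DESeq2, 19 members were lower, where 541 of the 25926 genes with any count were (2.09%). That total holds low-count genes that the edgeR filter removed, so its share is not like those of edgeR. With responder replicate 8 left out of the edgeR test 28 were lower, where 5.74% of 14540 were. In that fit Rrm2 had a log2 fold change of -0.53 (SE 0.07, adjusted p = 0.00441). Leaving out any other combination tumour left 0. Response was spread unevenly over the name series. Series 2 held responder replicates 2 and 4 and non-responder replicates 1, 3 and 5. Series 4 held responder replicates 6, 7, 8 and 10 and non-responder replicate 9. With the name series as a block 0 of 42 members passed, where 0 of 15359 genes were lower. Summed leukocyte markers were at 1974 to 3466 CPM in responders and at 1562 to 2608 CPM in non-responders, and summed T cell markers at 56.6 to 118 CPM and at 48.6 to 70.9 CPM, with overlap. With the leukocyte covariate the medians were -0.22 and -0.15, and no member passed (0 of 42).

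**Figure D5:**
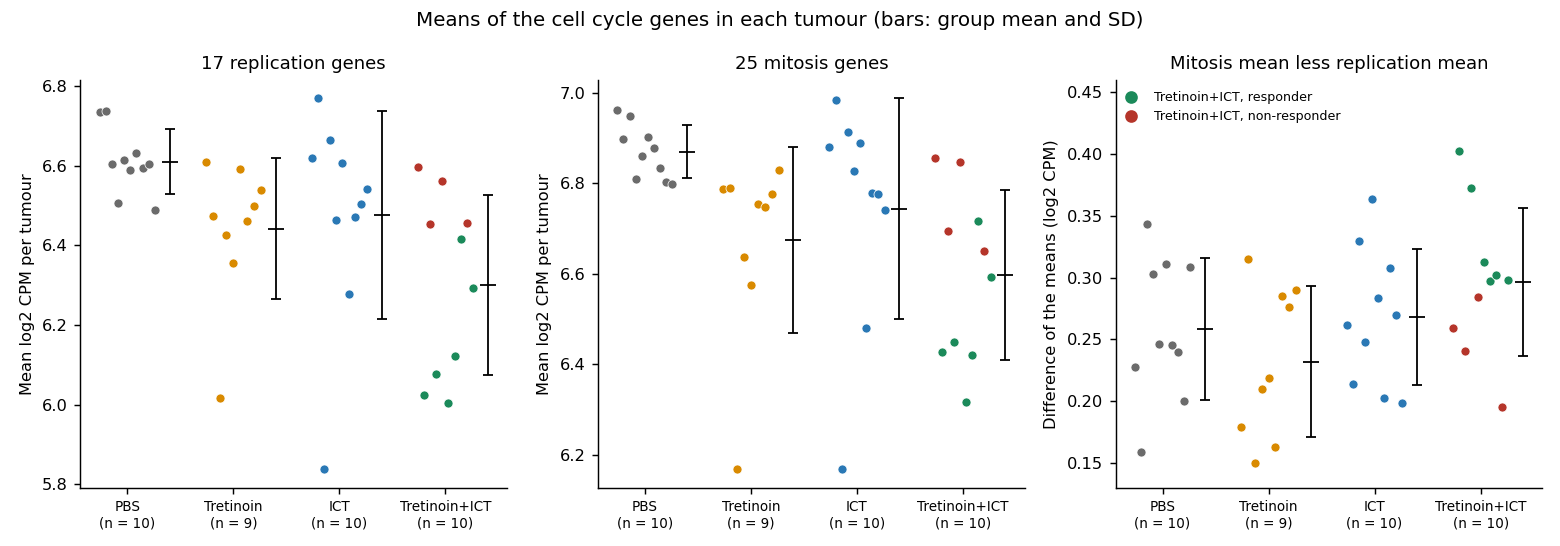
Mean log2 CPM of the 17 replication genes, of the 25 mitosis genes, and the mitosis mean less the replication mean, in each tumour by group, with bars for the group mean and SD. The 6 responders lie between 6.00 and 6.42 in the first panel, under the 4 non-responders at 6.45 to 6.60.

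The replication and mitosis genes were also compared with each other as means per tumour. The replication mean had a lowest, median and highest value of 6.49, 6.60 and 6.74 log2 CPM in PBS, 6.02, 6.47 and 6.61 with tretinoin, 5.84, 6.52 and 6.77 with ICT and 6.00, 6.35 and 6.60 with the combination. The mitosis mean had 6.80, 6.87 and 6.96, then 6.17, 6.75 and 6.83, then 6.17, 6.80 and 6.98, and 6.32, 6.62 and 6.85. Their difference, mitosis less replication, was 0.16 to 0.34 in PBS, 0.15 to 0.32 with tretinoin, 0.20 to 0.36 with ICT and 0.19 to 0.40 with the combination, so all 4 ranges overlapped. Within the combination the difference was 0.30 to 0.40 in responders and 0.19 to 0.28 in non-responders. These do not overlap, while the PBS tumours ran across the non-responders' range and into that of the responders. Assigning Ccna2, Mybl2, Foxm1 and Wee1 to neither set left the direction of both medians as it was in each comparison of groups.

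Other genes of the pathway were counted in the same way. With the combination against PBS, 30 of 40 other replication genes tested were lower and 1 higher, and 32 of 35 other mitosis genes were lower, where 24.5% of all genes were lower and 25.7% higher. Among the former, Tipin, of the fork protection complex, fell by 0.38 (adjusted p = 1.06e-04), Tk1, thymidine kinase, by 0.47 (adjusted p = 1.22e-04) and the chromatin remodeller Hells by 0.53. Rfc3, of the clamp loader, was the exception and rose by 0.27 (adjusted p = 1.86e-04). Among the latter, the spindle gene Ckap2 fell by 0.48 (adjusted p = 1.33e-05) and the condensin Smc4 by 0.31. Of 12 CDK inhibitors and pocket proteins tested, 2 were lower and 6 higher against the same 24.5% and 25.7%. Cdkn1a, the p21 inhibitor, was at 74.79, 80.04 and 86.57 CPM in PBS and at 84.41, 98.71 and 138.6 CPM in the combination (log2 fold change 0.42, SE 0.08, adjusted p = 3.90e-04). Cdkn2d rose by 0.43 (adjusted p = 6.81e-05), Cdkn1b did not pass (log2 fold change 0.16, adjusted p = 0.0946), and Cdkn2a was near 0, with medians of 0.107 to 0.281 CPM.

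Of 11 G1 cyclins, kinases and growth regulators tested, 5 were lower and 4 higher with the combination, against 24.5% and 25.7% of all genes. Ccnd2, cyclin D2, was at 70.28, 81.18 and 86.12 CPM in PBS and at 101.2, 134.8 and 156.8 CPM in the combination, with no overlap (log2 fold change 0.69, SE 0.08, adjusted p = 7.16e-07). Ccnd3 rose by 0.62 (adjusted p = 5.68e-06) and Myc by 0.18 (adjusted p = 0.0314), while Ccnd1, cyclin D1, had a log2 fold change of -0.20 (adjusted p = 0.0929) and E2f7, a repressor like E2f8, fell by 0.56 (adjusted p = 2.02e-04). With tretinoin alone, 5 of 40 other replication genes, a share near the 8.95% of all genes, and 17 of 35 other mitosis genes were lower and 0 were higher, and Ccnd2 rose by 0.50 (adjusted p = 1.54e-04). With ICT alone, 3 and 2 of these genes were lower, shares near the 7.15% of all genes. Between responders and non-responders 0 of these genes passed in edgeR. Leukocyte markers were higher in the combination tumours than in PBS. Their part in the changes of these other genes cannot be told apart from that of the treatment.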

How the data were processed

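The deposited table holds the authors' raw counts per gene for 39 whole tumours. Per the study's methods and the submitters' processing notes, reads were converted with bcl2fastq 2.20.0.422, aligned with HISAT2 2.0.4 to a mouse genome named mm11 and counted with SummariseOverlaps; strand and the treatment of reads with several alignments are not given in the sources used here, so members with near-identical copies are uncertain. Of the identifiers, 36719 (92.55%) match GENCODE M21, which gave exon lengths. The members and lists were chosen with earlier results of these data known.

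Each comparison was fitted on all genes of its groups' tumours with edgeR 4.0.16 (filterByExpr, TMM, robust quasi-likelihood test) in R 4.3.3, at a Benjamini-Hochberg adjusted p below 0.05, without the study's further minimum of 1 on the log2 scale. Standard errors were taken as |log2 fold change| over the root of the F statistic. Log2 CPM used a prior count of 2. DESeq2 1.42.0 and limma 3.58.1, Python 3.11.15, pandas 2.3.3, scipy 1.17.1, numpy 2.4.6 and matplotlib 3.10.9 served for alternatives, tables and figures. The tests were run on simulated data with planted changes larger than nearly all of the members' changes. How often changes as small as the members' are missed was not tested. Any member could be named; full values went to a fixed set of 20 and to the 3 of each set with the smallest adjusted p, and of other lists to 3 genes per list and to Cdkn1a, Cdkn1b, Cdkn2a, Ccnd1 and Myc. The leukocyte covariate and the fits without tretinoin replicate 3, without ICT replicate 3, without 4 tumours (PBS 4, tretinoin 3, ICT 3 and 7) or without the 6 of highest T cell markers (these and combination 2 and 6) were chosen after seeing the data.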

Additional observations from a re-analysis of the deposited data

Results flagged for a closer look

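Of 138 sets of values examined (the means and single members, group by group), 13 held 1 tumour far from the others. Its gap to the nearest other tumour was large for the whole range of its group by Dixon's 95% limit. Chance passes that limit in about 1 in 20 independent sets. These sets share tumours and correlated genes, so the 13 cannot be set against that rate. Tretinoin replicate 3 was the low tumour in 9 of the 13. Its gap took 0.574 of the group's range for the replication mean (6.02 log2 CPM, the next 6.36) and 0.618 for the mitosis mean (6.17, the next 6.58). For single members the gap was 0.571 of the range for Ccnb1, 0.51 for Prc1, 0.618 for Hmmr, 0.501 for Rrm1, 0.54 for Cdc6, 0.539 for Ccne2 and 0.57 for Mybl2. ICT replicate 3 was lowest for the replication mean (0.472, 5.84 log2 CPM against 6.28) and for Cdc6 (0.521, 21.71 CPM against 35.46). Responder replicate 8 was highest for Cdk1 (0.637, 146.7 CPM against 124.1), and PBS replicate 10 lowest for Wee1 (0.503, 29.22 CPM against 35.11). Tretinoin replicate 3 and ICT replicate 3 also had summed T cell markers of 166.8 and 174.3 CPM, against medians of 79.8 and 50.98 CPM in their groups, and the part of these cells was not tested.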

How the results depend on the processing

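Beside single tumours, 4 tumours were left out together (PBS 4, tretinoin 3, ICT 3 and 7, none of the combination), or the 6 with the highest T cell markers (these and combination 2 and 6). With an added minimum log2 fold change of 1 no member passed in any comparison (0). In the comparison of tretinoin with PBS, 11 members passed, against 3 in a single fit of all tumours and 4 with the leukocyte covariate. In those fits, in that order, 845 of 14977 and 960 of 15357 genes were lower. With ICT against PBS 1 passed, against 0 without the low-count filter, where 651 of 27238 genes were lower. With the covariate 0 passed, where 51 of 15192 genes were lower. Without the 4 or the 6 tumours 2 passed as lower, where 743 of 14197 genes were, a share near that of the members. The single fit of all tumours gave 1 as well, but higher, where 1991 of 14977 genes were higher. With the combination against ICT 0 passed, against 2 without ICT replicate 3, 24 without the 4 tumours and 1 without the 6. In those fits, in that order, 338 of 14266, 1048 of 14322 and 150 of 14165 genes were lower. Against tretinoin 2 passed, against 11 without tretinoin replicate 3, 11 without the 4 tumours, 3 without the 6 and 1 with the covariate. Without tretinoin replicate 3 or the 4 tumours, 2107 of 14465 genes were lower and 2367 higher. Without the 6, 1292 of 14313 genes were lower and 1721 higher. With the covariate 109 of 15466 genes were lower and 82 higher. Against PBS 37 passed, and between 33 and 37 with DESeq2, other size factors, other filters and all tumours in one fit. Without the 4 or the 6 tumours the count was also in that range. With the covariate 1 passed, where 37 of 15380 genes were lower and 307 higher. Between responders and non-responders 0 passed, against 19 with DESeq2, where 541 of 25926 genes with any count were lower. When each tumour was left out in turn 0 to 28 passed. The 28 were without responder replicate 8, where 834 of 14540 genes were lower. In single members, the covariate turned the sign of Ube2c (0.026), Foxm1 (0.041), Mcm2 (0.067), Mybl2 (0.13), Top2a (0.0019), Tpx2 (0.011), E2f1 (0.014), Aurka (0.014), Cenpa (0.00077), Plk1 (0.080), Gins2 (0.088), Mcm3 (0.0076), Cenpe (0.0055) and E2f8 (0.14) for the combination against PBS.

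Median log2 fold changes, replication then mitosis genes, moved beyond the spread as follows. With the covariate: tretinoin mitosis -0.13, ICT 0.064 and 0.062, combination against tretinoin 0.10 and 0.17, combination against PBS -0.0050 and -0.0048, responders -0.22 and -0.15. By name series: tretinoin series 3 against PBS series 1 -0.26 and -0.31, 7 against 5 -0.052 and -0.058, 7 against 1 mitosis -0.13; combination series 2 against PBS series 5 -0.22 and -0.18, 4 against 1 -0.41 and -0.37. ICT mitosis genes moved to -0.071 without ICT replicate 3 and to -0.032 without the 4 or the 6 tumours. Without the 6, combination mitosis genes moved to -0.23 against PBS and responders' replication genes to -0.28. Leaving out each combination tumour gave -0.44 to -0.31 for replication and -0.36 to -0.23 for mitosis genes between responders and non-responders. Of the results on medians, 152 stayed within the spread and 24 moved. Causes were not tested. No paired analysis was possible because the tumours' numbers pair no tumours across treatments. With 6 against 4 tumours, small differences may be missed at this depth and number.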
